A study of Arabidopsis thaliana with 5 samples.

Results

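The comparison described here is that of an Arabidopsis thaliana line labelled CAMTA.6.2 with its parental accession Col-0, on 2 of the 5 arrays of the series. The array of the line was the one whose labels gave Col-0 as ecotype and CAMTA.6.2 as line, and its control was the Col-0 array for which no line was named. Whole plants were sampled at growth stage 1.04, in the phase of rosette leaf production, after growth on Gamborg's B-5 medium at 18 °C and 65% humidity with 16 h of light and 8 h of dark, conditions shared by all groups. Per its labels, CAMTA.6.2 is a T-DNA insertion line of the Columbia background, made by Agrobacterium infiltration with the vector pROK2 and still segregating, so its plants need not all carry the insertion in both copies. The other arrays held a second T-DNA line in Col-0 (CAMTA.1.2), the accession WS, and a line in WS (CAMTA.1). Each group had 1 array and how many plants were pooled is not given in the labels, so every value below is a size without a replicate and no test was possible.

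CAMTA proteins are calmodulin-binding transcription activators. They bind calmodulin, the sensor that carries calcium signals, and they bind promoters that hold a CGCG core. In Arabidopsis, members of the family are known for controlling genes of cold acclimation and for holding down defence genes in unstressed leaves. The tables used here give no probe set the name of a CAMTA gene, although loci that they leave unnamed may belong to the family, so the insertion itself could not be checked on its target.

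Before the results, the labels of the 2 arrays were examined. From here on the arrays go by their labels alone. The source name of the CAMTA.6.2 array carries the letters WSC, against the Col-0 ecotype in its own characteristics. That of the control array carries KO1, although its characteristics name no line, so every direction below rests on the characteristics. ECS1, whose transcript level is known to depend on the accession, had intensities of 6832 on Col-0, 4865 on CAMTA.1.2 and 3545 on CAMTA.6.2, against 97.3 on WS and 39.1 on CAMTA.1. On this marker the CAMTA.6.2 array lay with the arrays labelled Col-0. The 3'/5' signal ratio of the ubiquitin control, a measure of RNA integrity, was 3.57 on CAMTA.6.2 and 2.64 on Col-0, and over the other arrays it ran from 2.28 to 3.32. That of the GAPDH control was 1.78 on CAMTA.6.2 and 1.64 on Col-0, and it ran from 1.29 on CAMTA.1 to 1.94 on CAMTA.1.2. The scanner background was 74.44 on CAMTA.6.2 and 60.73 on Col-0, with the others between 64.86 and 92.64. Whether RNA integrity or background played a part in the differences below was not tested.

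Intensities are on a linear scale, after each array was scaled to a common median, and the floor, below which a value was not read, was 18.1. Differences of 2-fold or more, which is 1 on the log2 scale, were counted. The words "at least" mark a bound, used when the dimmer array lay at the floor. Of 8247 probe sets, 286 were higher on CAMTA.6.2 (3.47%) and 344 were lower (4.17%). At 4-fold or more, 41 were higher and 65 lower, and at 8-fold or more, 12 and 11. Of the differences, 43 of the higher ones started from the floor on Col-0 and 82 of the lower ones ended at the floor on CAMTA.6.2.

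The differences were not restricted to dim probe sets. Among probe sets above the floor on both arrays, 7.1% were 2-fold apart where the mean of the 2 arrays lay under an intensity of 50, and 15.58% between 400 and 800. Above a mean of 1600 there were 147 probe sets, of which 16 were higher on CAMTA.6.2 and 0 lower. Their counts depended on the scaling, with 12 and 0 as deposited and 9 and 1 with quantile normalization. PSAE-1, a subunit of photosystem I, was the 1 named gene among the 16, at 2495 on Col-0 and 5050 on CAMTA.6.2. The median log2 difference over all probe sets above the floor on both arrays was 0.05.

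**Figure D1:**
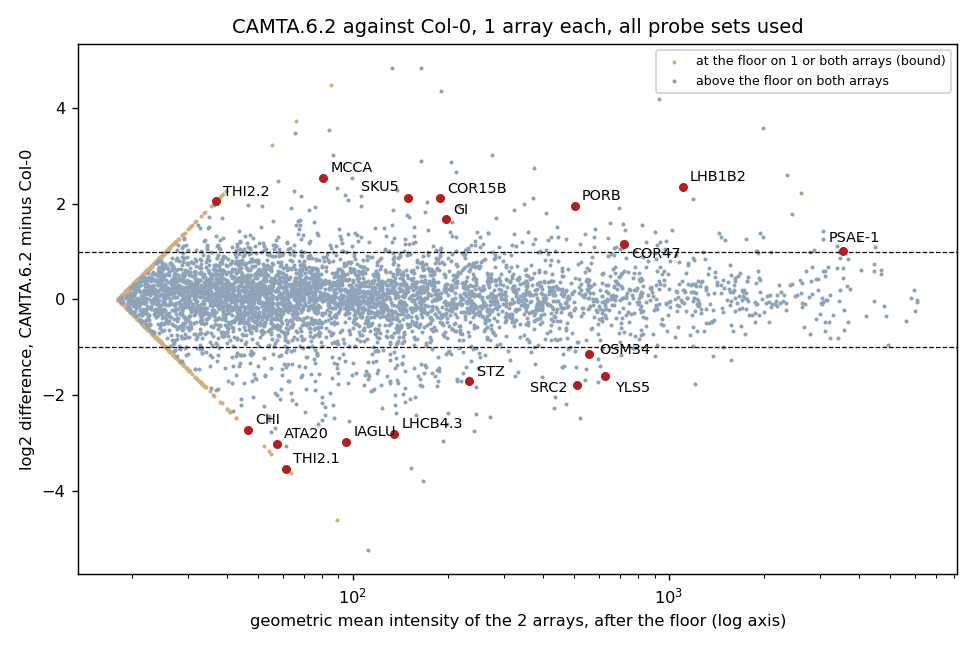
Log2 difference of each probe set between the CAMTA.6.2 and Col-0 arrays (vertical axis) against the geometric mean intensity of the 2 arrays (horizontal axis, log scale). Dashed lines mark 2-fold, ochre points are bounds with an array at the floor, and red points are the genes labelled in the plot, which run from THI2.1 at -3.53, a bound, to MCCA at 2.54.

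Genes of cold acclimation encode dehydrins and small chloroplast or cytosolic proteins that shield membranes and proteins during freezing and water loss. Of the 7 cold and drought genes measured, 2 were at least 2-fold higher on CAMTA.6.2 and 1 was lower, where 2.97% of all 3602 genes named by a probe set were higher and 3.11% lower. Their median log2 difference was 0.94, against 0.00 over all these genes. Of the 3602, 2155 were above the floor on either array. Among the 598 genes with a symbol, a closer background for this and the later lists, 3.85% were higher and 6.35% lower.

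COR15B, which encodes a chloroplast stroma protein of cold acclimation, was at 90.7 on Col-0, 71.1 on CAMTA.1.2, 392 on CAMTA.6.2, 63.7 on WS and 59.0 on CAMTA.1. The CAMTA.6.2 array stood alone, 4.32-fold above Col-0 and 5.52-fold above CAMTA.1.2. The dehydrin gene COR47 was at 483, 610, 1080.1, 720.0 and 761 on the 5 arrays in the same order, so its 2.24-fold difference from Col-0 narrowed to 1.77-fold from CAMTA.1.2. Both probe sets of COR47 were higher, with log2 differences of 1.16 and 1.24.

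The remaining cold and drought genes lay inside 2-fold except HIS1-3. KIN2, a cold-inducible gene of a small hydrophilic protein, was at 762 on Col-0 and 1460 on CAMTA.6.2, and the dehydrin gene LTI30 was at 101.2 and 196.8, log2 differences of 0.94 and 0.96. The second probe set of KIN2 differed by 1.56, which is past 2-fold. The drought-induced gene DI21 differed by 0.36 and DI19 by -0.19. HIS1-3, a linker histone gene induced by drought, went the other way, at 82.7 on Col-0 and 37.5 on CAMTA.6.2. It was highest on CAMTA.1.2, at 268.9, and it was at 130.3 on WS and 60.2 on CAMTA.1. The list thus had 5 genes above 0 and 2 below, the linker histone gene and, well inside 2-fold, DI19.

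In photosynthesis, antenna proteins bind chlorophyll and pass light energy to photosystems II and I, and the energy captured drives carbon fixation by the Calvin cycle. LHB1B2, an antenna protein of photosystem II, was at 489 on Col-0, 640 on CAMTA.1.2, 2502 on CAMTA.6.2, 398 on WS and 1946 on CAMTA.1. It was 5.11-fold higher than on Col-0 and 3.91-fold higher than on CAMTA.1.2, and the CAMTA.1 array was high too. Its second probe set was at the floor on Col-0 and at 86.6 on CAMTA.6.2. The probe set used for it is of a kind that can detect several transcripts, so related antenna genes may share its signal.

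The minor antenna protein CP29 was measured by probe sets of 2 of its genes, and they went opposite ways. LHCB4.1 was bright on every array, at 3777 on Col-0 and 5789 on CAMTA.6.2, a log2 difference of 0.62. LHCB4.3 was at 356 on Col-0, 218 on CAMTA.1.2, 51.1 on CAMTA.6.2, 199 on WS and 48.4 on CAMTA.1, 6.97-fold lower than on Col-0.

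All 5 photosystem genes were on the higher side, with log2 differences from 0.56 to 1.02 and a median of 0.86. PSAE-1 was at 2-fold, and its 3 probe sets differed by 1.02 to 1.27. PSAN, on the lumenal side of photosystem I, was at 1371 and 2677, PSBW of photosystem II at 2569 and 4676, PSBY at 2231 and 3577, and PSB27, a factor of photosystem II assembly, at 1385 and 2039, on the Col-0 and CAMTA.6.2 arrays. These 4 lay inside 2-fold, at 0.97, 0.86, 0.68 and 0.56 on the log2 scale. With quantile normalization all 5 were still on the higher side, but at 0.37 to 0.76 with a median of 0.46, and PSAE-1 at 0.70 was inside 2-fold. PSAE-1 was also inside 2-fold against CAMTA.1.2, at 1.54-fold. All 5 genes were higher on CAMTA.1 than on WS too, by 0.20 for PSB27 to 0.84 for PSAE-1 on the log2 scale.

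Carbon fixation genes lay on the lower side, all inside 2-fold. RCA, which encodes the activase of Rubisco, was at 5017 on Col-0 and 4546 on CAMTA.6.2, SBPASE at 565 and 401, and PRK, phosphoribulokinase, at 1231 and 784. Their log2 differences were -0.14, -0.50 and -0.65, and HPR, an enzyme gene of photorespiration, was at -0.26. The 5 photosystem genes and the 3 carbon fixation genes lay on opposite sides of 0, as deposited and under both other scalings too.

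Chlorophyll is made from glutamate through the tetrapyrrole pathway, and the reduction of protochlorophyllide is its light-dependent step. PORB, which encodes the enzyme of that step, was at 255 on Col-0, 212 on CAMTA.1.2, 995 on CAMTA.6.2, 200 on WS and 459 on CAMTA.1. The CAMTA.6.2 array was 2-fold above each of the others, 3.90-fold above Col-0. The early pathway genes HEMA2 and GSA1 differed by 0.36 and 0.12. HEME2, of uroporphyrinogen decarboxylation in the middle of the pathway, was outside the list and was 2.1-fold higher, at 131.5 and 275.4.

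GI, or GIGANTEA, encodes a nuclear protein of the circadian clock and of photoperiodic flowering, and its transcript cycles over the day. It was at 110.3 on Col-0, 117.7 on CAMTA.1.2, 352.7 on CAMTA.6.2, 121.8 on WS and 160.5 on CAMTA.1. The other arrays lay close together and the CAMTA.6.2 array 3.20-fold above Col-0. Of its 4 probe sets, 3 were over 2-fold higher, by 1.68, 2.48 and, from the floor on Col-0, at least 2.13 on the log2 scale, and the remaining one was at the floor on every array. The time of day at harvest is not given in the labels, and its part in this result was not tested. GI was the 1 clock gene of the list that a probe set named.

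**Figure D2:**
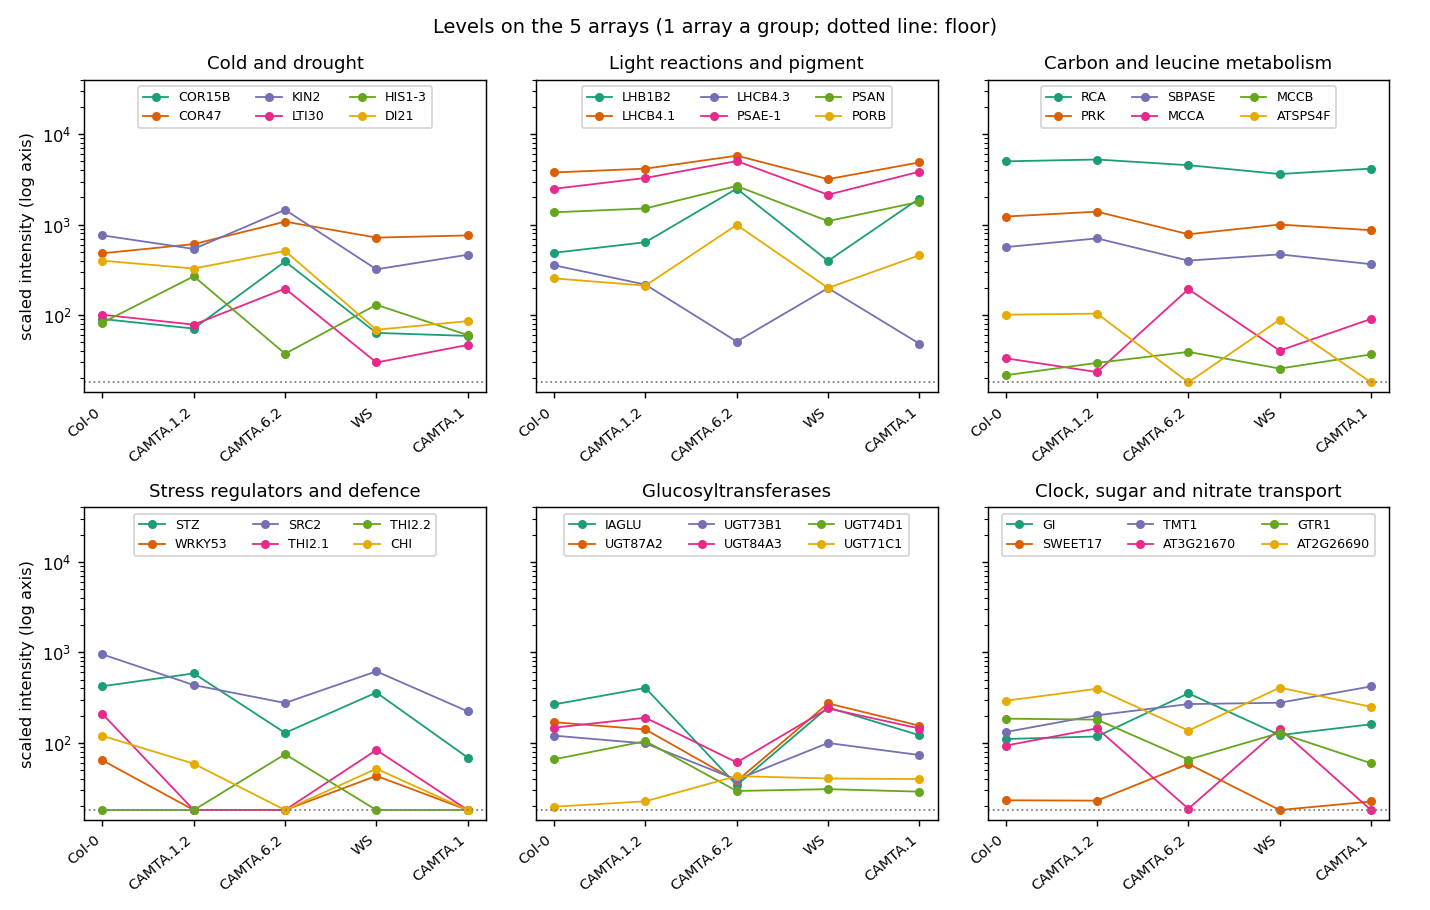
Scaled intensity (log axis) of 36 genes on each of the 5 arrays, 1 point per array, with lines joining the points of a gene as a guide to the eye and a dotted line at the floor of 18.1. COR15B, PORB and GI peaked on CAMTA.6.2, and IAGLU and UGT87A2 were lowest there.

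Leucine is broken down in mitochondria through 3-methylcrotonyl-CoA carboxylase, which has subunits encoded by MCCA and MCCB. MCCA was at 33.4 on Col-0, 23.5 on CAMTA.1.2, 193.8 on CAMTA.6.2, 40.6 on WS and 90.8 on CAMTA.1. It was 5.81-fold higher than on Col-0 and 2-fold above every other array. MCCB was dim, at 21.7 and 39.3, and ETFQO, which passes electrons from this breakdown to the respiratory chain, was at 36.4 and 72.4. They differed by 0.86 and 0.99 on the log2 scale, just inside 2-fold, and D2HGDH by 0.29. The 4 genes had a median of 0.92.

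Genes of sugar handling went both ways. The sucrose-phosphate synthase gene ATSPS4F was at 101.2 on Col-0, 104.0 on CAMTA.1.2 and 89.1 on WS, and at the floor on the CAMTA.6.2 and CAMTA.1 arrays, so it was at least 5.59-fold lower than on Col-0. SBE2.2, a starch branching enzyme gene, differed by 0.52. Outside the list, SWEET17, a fructose transporter of the vacuole membrane, was at 23.2 on Col-0 and 58.6 on CAMTA.6.2, 2-fold above every other array. TMT1, which loads sugars into the vacuole, was at 131.8 and 268.3, and it was higher still on the WS and CAMTA.1 arrays, at 277.7 and 420.3. ATG8E, of autophagy, was 2.12-fold higher, at 466 and 989, and TMT1 and ATG8E came inside 2-fold as deposited and with quantile normalization, respectively. EXO, a gene of brassinosteroid-dependent growth, was at 607 and 909, and it was at 157 on CAMTA.1.2.

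Zinc finger and WRKY proteins are transcription factors that respond quickly to cold, wounding, touch or pathogens. STZ, also called ZAT10, was at 423 on Col-0, 586 on CAMTA.1.2, 128.9 on CAMTA.6.2, 360.1 on WS and 68.8 on CAMTA.1. It was 3.28-fold lower than on Col-0 and 4.55-fold lower than on CAMTA.1.2, and its second probe set differed by -2.21. WRKY53, a factor of senescence and defence, was at 64.0 on Col-0 and at the floor on the CAMTA.6.2, CAMTA.1.2 and CAMTA.1 arrays. It was at least 3.53-fold lower than on Col-0, but the CAMTA.1.2 array did not differ from CAMTA.6.2, both being at the floor.

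Of the 11 stress transcription factors, those 2 were lower at 2-fold (18.2%) and 0 were higher. The shares were 3.11% and 2.97% of all genes, and 6.35% and 3.85% of genes with a symbol. The median of the 11 was -0.52. WRKY22, a factor of innate immunity, was on the higher side, at 59.0 and 108.9. WRKY6, WRKY20 and WRKY47 differed by -0.72, -0.69 and -0.52. Of 9 genes of calcium binding and calmodulin, SRC2, which encodes a C2-domain protein, was the 1 at 2-fold (11.1%). It was at 950.5 on Col-0, 435 on CAMTA.1.2, 276 on CAMTA.6.2, 617 on WS and 223 on CAMTA.1. The Col-0 array was the highest of the 5, and the CAMTA.6.2 array was 1.58-fold below CAMTA.1.2. The calmodulin-like genes CML30 and CML42 differed by 0.71 and 0.60, CML41 by -0.69 and IQD22, of a calmodulin-binding family, by -0.96.

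Hsp70-2, which encodes a heat shock protein 70 chaperone, was at 194.5 on Col-0, 263.6 on CAMTA.1.2, 64.6 on CAMTA.6.2, 150.0 on WS and 38.4 on CAMTA.1. Both of its probe sets were lower, at -1.59 and -1.12 on the log2 scale. The other heat shock genes of the list, Hop3 and ATHSP22.0, were at the floor on all arrays.

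Thionins, chitinases, osmotins and defensins are small secreted proteins or wall-degrading enzymes with activity against microbes. Of the 8 genes of this list, 1 was 2-fold higher (12.5%) and 3 were lower (37.5%). The shares were 2.97% and 3.11% of all genes, and 3.85% and 6.35% of genes with a symbol. The 2 thionin genes went opposite ways. THI2.1 was at 208.6 on Col-0 and 83.4 on WS and at the floor on the 3 arrays of the lines, at least 11.5-fold lower than on Col-0. Of its other probe sets, one at the floor on CAMTA.6.2 gave a bound of -3.17 and one near the floor differed by 0.85. THI2.2 was at 74.9 on CAMTA.6.2 and at the floor on the other 4, so it was at least 4.14-fold higher.

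CHI, a chitinase gene, was at 119.6 on Col-0, 58.8 on CAMTA.1.2 and 51.8 on WS, and at the floor on the CAMTA.6.2 and CAMTA.1 arrays, at least 6.61-fold lower than on Col-0. OSM34, of the osmotin family, was at 826 and 376, a 2.19-fold difference that was 1.57-fold against CAMTA.1.2. The chitinase gene ChiC differed by -0.15, and ECS1, the accession marker above and also a member of the list, by -0.95. LCR67 and PR-1-LIKE were at the floor on Col-0 and higher by at least 0.90 and 0.57. PDF2.1, a defensin gene outside the list, was 3.39-fold higher, at 80.2 on Col-0, 89.8 on CAMTA.1.2, 272.3 on CAMTA.6.2, 65.7 on WS and 147.4 on CAMTA.1. The defence genes therefore had members at both ends, with a list median of -0.55.

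UDP-glycosyltransferases attach sugars to hormones and secondary metabolites. Of 23 measured, 5 were 2-fold lower on CAMTA.6.2 and 1 was higher, against 3.11% and 2.97% of all genes named by a probe set. Among genes with a symbol, the closer background for a list matched by symbol, 6.35% were lower and 3.85% higher. Of the 23, 15 were above the floor on either array. IAGLU, which joins glucose to the auxin indole-3-acetic acid, was at 266.1 on Col-0, 404.8 on CAMTA.1.2, 34.1 on CAMTA.6.2, 246.7 on WS and 121.5 on CAMTA.1. It was 7.81-fold lower than on Col-0, 11.9-fold lower than on CAMTA.1.2 and 2-fold below every other array.

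UGT87A2, a glycosyltransferase gene linked to flowering time, was at 169.3 on Col-0, 140.7 on CAMTA.1.2, 37.8 on CAMTA.6.2, 273.4 on WS and 154.9 on CAMTA.1, and it too was lowest on CAMTA.6.2 by more than 2-fold. UGT84A3, which acts on hydroxycinnamic acids such as sinapate, was at 147.2 and 60.8 and was likewise 2-fold below all other arrays. UGT73B1, which acts on flavonoids, was 3.06-fold lower and UGT74D1, which acts on auxins, 2.23-fold lower. UGT74D1 was about as low on the WS and CAMTA.1 arrays, at 30.8 and 28.9. UGT71C1 was 2.17-fold higher from a level of 19.7, close to the floor, and UGT71C2, at 41.1 and 82.1, fell just short of 2-fold. UGT85A2 and UGT72E1 differed by 0.71 and 0.59, and GT72B1 and UGT74B1 by -0.49 and -0.42.

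Of 3 glutathione transferase genes, 1 was 2-fold lower, where 3.11% of all genes and 6.35% of genes with a symbol were lower. This was GSTU16, at 115.2 and 28.8, 4-fold lower, while GSTF3 was at 525.8 and 264.1, a log2 difference of -0.99, and GSTU18 differed by -0.13. Of 3 cytochrome P450 genes, CYP71B6 was 2.66-fold and CYP71B28 2.23-fold lower, and CYP71B29 differed by 0.24.

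Genes of the auxin list other than IAGLU stayed inside 2-fold. Outside that list, UGT74D1, named above, was 2.23-fold lower and HAT2, a gene induced by auxin, 2.28-fold lower. Of 9 on the list, 5 were above the floor on either array. GH3.3, an enzyme gene of auxin conjugation, was at 61.9 on Col-0 and 51.5 on CAMTA.6.2, and at or near the floor on the other 3. IAA20 and IAA18, repressors of auxin response, differed by 0.58 and -0.19, and WES1, another conjugation gene, by 0.31.

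Transporters of the NRT1/PTR family carry nitrate, peptides and, in some members, glucosinolates or hormones. Of the 5 listed under nitrogen, all of this family, 3 were 2-fold lower on CAMTA.6.2 and 0 higher. Of all genes 3.11% were lower and 2.97% higher, and of genes with a symbol 6.35% and 3.85%. AT3G21670 (NPF6.4) was at 93.3 on Col-0, 144.7 on CAMTA.1.2, 18.7 on CAMTA.6.2 and 143.9 on WS, and at the floor on CAMTA.1. Its 4.99-fold difference rests on a value just above the floor. GTR1, a transporter of glucosinolates, was 2.83-fold lower, at 185.3 and 65.4, and AT2G26690 (NPF6.2) 2.14-fold lower, at 292.0 and 136.7. On CAMTA.1, GTR1 was lower still, at 59.6, and AT2G26690 was at 250.5. They were at 128.7 and 407.8 on WS. AT1G59740 differed by 0.22.

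**Figure D3:**
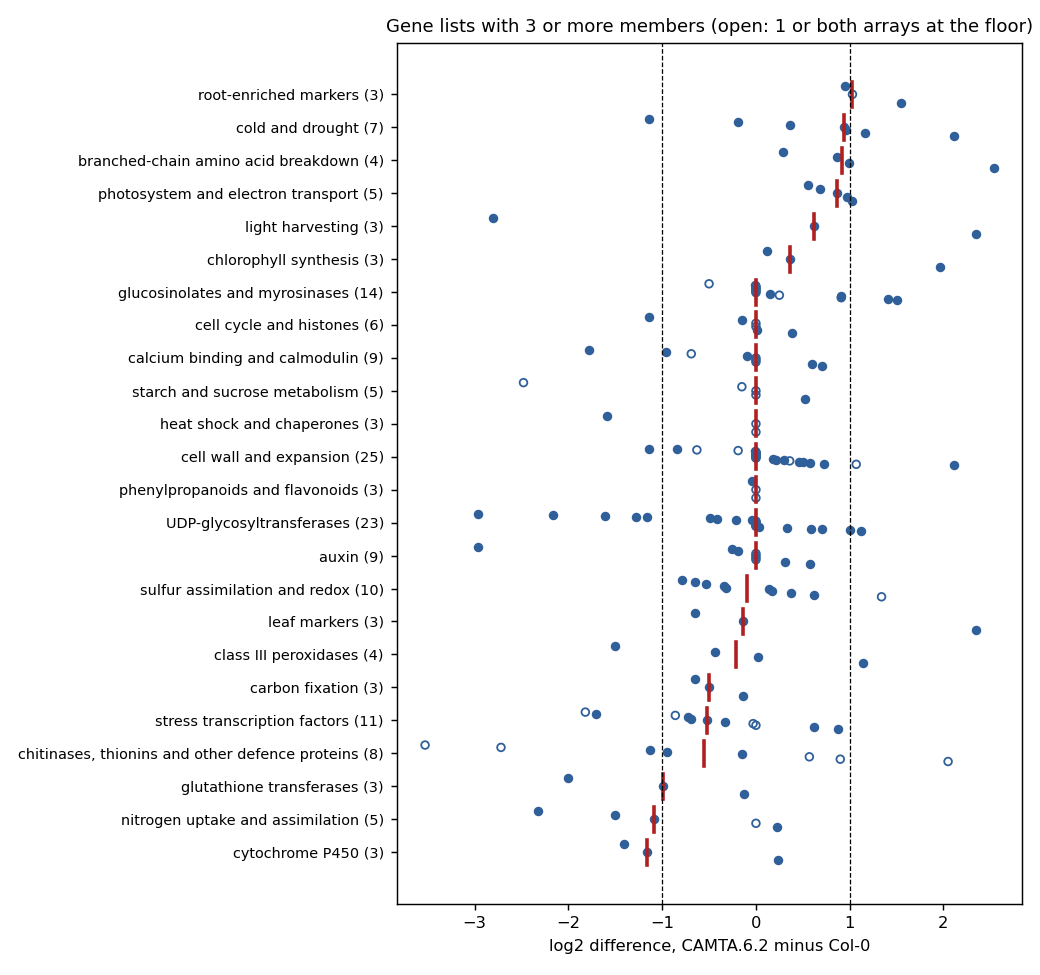
Log2 difference between the CAMTA.6.2 and Col-0 arrays of every member of the gene lists with 3 or more members (number in brackets). Each point is a gene, open points have an array at the floor, red bars are list medians and dashed lines mark 2-fold, and the medians run from -1.16 for the cytochrome P450 genes to 1.03 for the root-enriched loci.

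Cell walls expand through expansins, which loosen the wall, and are built from cellulose and hemicelluloses. Of 25 genes of this list, 2 were 2-fold higher and 1 was lower, shares of 8.0% and 4.0% beside 2.97% and 3.11% of all genes, so the lower share was near that of all genes, and the median was 0.00. SKU5, a glycoprotein gene of directional root growth, was at 71.8 on Col-0, 107.8 on CAMTA.1.2, 309.7 on CAMTA.6.2, 107.7 on WS and 282.0 on CAMTA.1, 4.32-fold higher than on Col-0. CSLA03, of a family of mannan synthases, was at 37.9 against the floor, and COB, which orients cellulose, differed by 0.73. The expansin gene EXPA8 was at 170.8 and 77.7, 2.2-fold lower and 2-fold below all other arrays, while EXPA4, EXPA15 and EXPB1 differed by 0.21, 0.50 and 0.46.

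Class III peroxidases cross-link wall polymers. Of the 4 on the list, AT5G64120 (PRX71) was 2.83-fold lower and AT5G66390 (PRX72) 2.2-fold higher. PRXR1 differed by 0.02, at 3025 and 3073, and AT2G41480 by -0.44. The list was matched by name, so loci outside it may belong to the family too, and these 4 do not stand for it. PRX71 was at 313.6 on Col-0, 212.2 on CAMTA.1.2, 111.0 on CAMTA.6.2, 210.8 on WS and 110.3 on CAMTA.1. PRX72 was at 43.9, 65.0, 96.6, 102.9 and 140.5 in the same order, so Col-0 was its lowest array. It was 1.48-fold higher on CAMTA.6.2 than on CAMTA.1.2. Of 14 genes of glucosinolates, beta-glucosidases and jacalin lectins, 2 were higher (14.3%) and 0 lower, beside 2.97% and 3.11% of all genes. Of the 14, 8 were above the floor on either array. BGLU21, a beta-glucosidase gene, was at 263.0 on Col-0, 195.0 on CAMTA.1.2, 749.2 on CAMTA.6.2, 602.4 on WS and 940.6 on CAMTA.1. JAL34, a jacalin lectin gene, was 2.65-fold higher, at 152.1 and 403.5. Of 10 genes of sulfur assimilation and redox, MSRB6, a methionine sulfoxide reductase gene, was the 1 at 2-fold (10.0%). MSRB6 was at 45.8 on CAMTA.6.2 and at the floor on the other 4.

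The sampled tissue was whole plants, and markers of its organs were compared between the arrays. The 3 leaf markers measured, RCA, PRK and LHB1B2, were bright on all arrays and summed to 6737 on Col-0 and 7832 on CAMTA.6.2. Of the 3, LHB1B2 alone was higher on CAMTA.6.2, and RCA and PRK were lower, with a list median of -0.14. The 3 loci taken as root-enriched, AT3G01190, AT4G26010 and AT5G17820, summed to 172 on Col-0, 152 on CAMTA.1.2, 354 on CAMTA.6.2, 339 on WS and 399 on CAMTA.1. AT3G01190 was at 18.8 and 55.2, AT4G26010 at the floor and at 37.1, and AT5G17820 at 135.1 and 261.3, on the Col-0 and CAMTA.6.2 arrays. SKU5 and BGLU21 were higher on the same array as these loci, and the part of root tissue in those results was not tested. In whole plants, fewer cells of a type and less RNA per cell cannot be told apart. ATA20, the 1 anther gene measured, was at 162.8 on Col-0, 67.7 on CAMTA.1.2, 20.2 on CAMTA.6.2, 50.9 on WS and 22.3 on CAMTA.1, 8.05-fold lower than on Col-0 from a level near the floor. OLEO3, the 1 seed oil body gene measured, was at the floor on all arrays.

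Of 598 genes with a symbol of their own, 23 were 2-fold higher (3.85%) and 38 lower (6.35%). Those outside the lists, chosen after their values were seen, included genes of growth and signalling on the lower side. HAT2, a homeodomain gene induced by auxin, was at 130.0 and 56.9, ARL, an ARGOS-like gene of organ growth, at 262.2 and 102.3, ATSK12, a GSK3-like kinase gene, at 185.0 and 75.8, and RR16, a cytokinin response regulator gene, at 37.5 and the floor. UPB1, a regulator of root growth, and GLR2.7, a glutamate receptor-like channel gene, were each at the floor on CAMTA.6.2 from 41.8 and 41.7. On CAMTA.1, RR16, UPB1 and GLR2.7 were at the floor too. HAT2 was lower there than on CAMTA.6.2, at 35.3, and ARL and ATSK12 were at 118.6 and 106.1. YLS5, of the DJ-1 family, was at 1090 on Col-0, 739 on CAMTA.1.2, 359.5 on CAMTA.6.2, 349.7 on WS and 428.9 on CAMTA.1, so that the CAMTA.6.2 array was not the lowest of them.

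Other genes outside the lists were higher, and they too were picked after their values were seen. TUB5, a beta-tubulin gene, was at 100.6 on Col-0 and 224.6 on CAMTA.6.2, and WLIM2a, of an actin-bundling family, at 104.2 and 237.6. Both were also high on CAMTA.1, at 199.0 and 245.9. 3xHMG-box1, a chromatin protein gene, was at 50.1 on CAMTA.6.2 and at the floor on the other 4, and BZIP34, a transcription factor gene, was at 43.7 against the floor on Col-0.

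Several named loci to which the tables used here give no function were also far apart. AT4G12545 was at 24.7 on Col-0, 25.2 on CAMTA.1.2, 285.8 on CAMTA.6.2, 103.0 on WS and 647.3 on CAMTA.1. AT2G20670 was at 145.1, 81.1, 969.1, 363.7 and 272.6 in the same order, 11.9-fold above CAMTA.1.2. AT2G30600 was at 60.3, 145.9, 447.1, 85.5 and 114.2, and its second probe set differed by 3.48. Of these, AT2G20670 and AT2G30600 were 2-fold above every other array, and AT4G12545 was not.

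On the lower side, AT2G20870 was at 681 on Col-0, 184 on CAMTA.1.2, 18.2 on CAMTA.6.2 and 366 on WS, and at the floor on CAMTA.1. Its difference was -5.23 on the log2 scale, from a CAMTA.6.2 value just above the floor, and its second probe set, at the floor there, gave a bound of -4.60. AT2G15580 was at 318.1 and 78.0 and AT4G34630 at 463.3 and 130.2, and neither was low on CAMTA.1.2, at 493.3 and 544.0. Both were lower on CAMTA.1, at 113.7 and 196.5, than on WS, at 305.6 and 434.8. AT2G42690 was at 311.3 and 88.5, 2-fold below all other arrays on the probe set used.

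Probe sets that name no gene made up 162 of the higher and 218 of the lower ones. The most different of them measured on both arrays had 24.9 on Col-0 and 707.6 on CAMTA.6.2, 28.4-fold higher, with 24.3 or less on the other 3. The next, 28.3-fold higher at 30.9 and 874.1, was also high on WS, at 286.5, and higher still on CAMTA.1, at 1493.4. Another was 13.8-fold lower, with 620.5 on Col-0 and 44.8 on CAMTA.6.2.

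Genes with several probe sets give a technical check of a size within these 2 arrays. Of 164 such genes, 20 were 2-fold apart on the brightest probe set, which was the one used. In 16 of the 20 another probe set was 2-fold apart in the same direction, and in 0 was one 2-fold apart in the opposite direction. Among the named genes THI2.1 and GI had the widest spread between probe sets, from -3.53 to 0.85 and from 0.00 to 2.48.

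**Figure D4:**
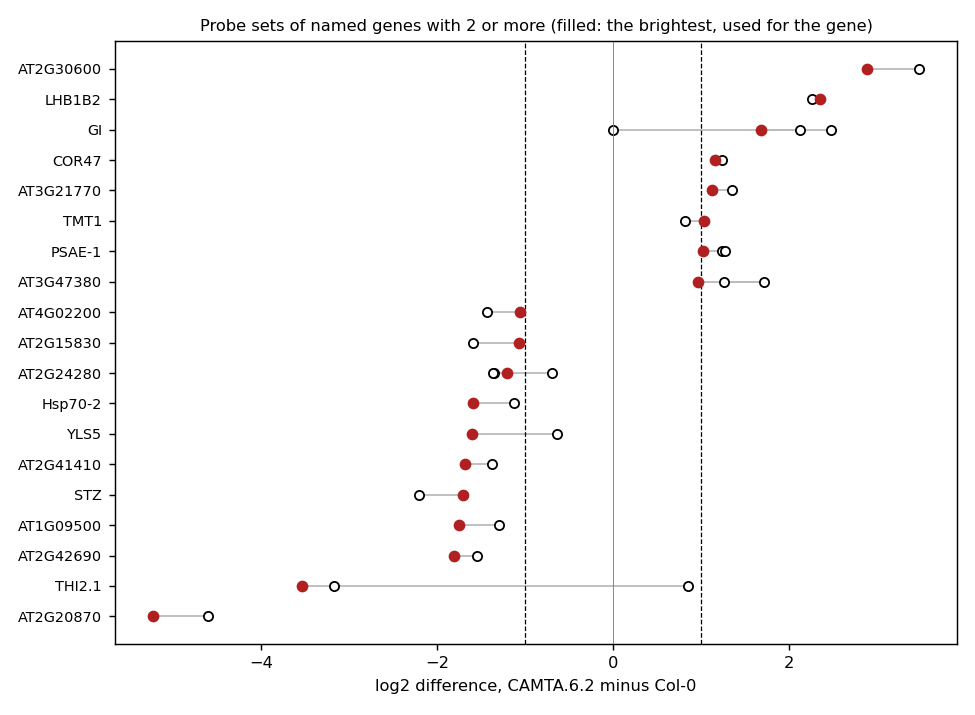
Log2 difference between the CAMTA.6.2 and Col-0 arrays for each probe set of the named genes that have several. The filled point is the brightest probe set, used for the gene, open points are the others, and dashed lines mark 2-fold. The points of a gene lie on the same side of 0, except for GI, with a probe set at 0.00, and THI2.1, with one at 0.85.

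The other arrays show how far a difference belongs to the CAMTA.6.2 array or to its control. CAMTA.6.2 exceeded each of the other 4 arrays by 2-fold or more at 67 probe sets (0.812%) and lay below each of them at 27 (0.327%). The corresponding counts were 24 and 1 for the Col-0 array, 4 and 16 for CAMTA.1.2, 14 and 12 for WS, and 16 and 31 for CAMTA.1. Genes with a symbol that stood above on CAMTA.6.2 were MCCA, COR15B, THI2.2, PORB, GI, 3xHMG-box1, MSRB6 and SWEET17, and those below were IAGLU, UGT87A2, UGT84A3 and EXPA8. All 24 for which Col-0 stood above the rest are by construction among the 344 lower ones.

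Set against CAMTA.1.2 in place of Col-0, 195 of the 286 higher probe sets were still 2-fold higher and 214 of the 344 lower ones still 2-fold lower. As both comparisons use the CAMTA.6.2 array, this gives the levels on the other Col-0-labelled array and is no second measurement of the line. In the opposite direction lay 1 of the higher and 17 of the lower probe sets. TET8, a tetraspanin gene, was one of the latter, at 920 on Col-0, 339 on CAMTA.1.2 and 387 on CAMTA.6.2. CSLC5, of a family of xyloglucan synthases, was another, at 52.8 on Col-0, at the floor on CAMTA.1.2 and at 23.6 on CAMTA.6.2. ICL, isocitrate lyase of the glyoxylate cycle, was at 41.8 on Col-0 and at the floor on the other 4.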

How the data were processed

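RNA from whole plants was measured on 5 one-colour Affymetrix arrays, per the labels. Intensity values, linear and 1 per probe set, were deposited by the authors. How probes were summarised is not given in the sources used. Groups follow the ecotype and line in the characteristics. No 2 arrays held identical values. Of 8297 probe sets, 50 controls were left out. The floor was the 40th percentile of all values. Arrays were scaled to 1 median, taken on the log2 scale from the 4245 probe sets that exceeded the floor on every array, and lower values were then raised to the floor.

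Of the 8247 probe sets, 3794 named 1 gene, 70 several and 4383 none. Symbols were updated through gene IDs to the TAIR10.1 gene table (3784 matched), used for names and gene order only. The brightest probe set stood for a gene. Lists were matched by symbol or synonym; 13 false matches were removed, and 6 of 37 lists had no member. Members and lists were chosen with earlier results of these data known. Genes were named if among the 25 largest measured differences or 10 largest bounds of a direction, if a list member or carrying 2 probe sets at 2-fold, or if 2-fold apart from all other arrays. A further 22 with a symbol were added after their values were seen. Promoter motifs, which were planned, were not analysed here.

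Steps were tested on simulated data. Python 3.11.15, numpy 2.4.6, pandas 2.3.3 and matplotlib 3.10.9 were used.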

Additional observations from a re-analysis of the deposited data

How the results depend on the processing

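With 1 array per group, no alternative measures the spread between plants, and precision is limited by the number of arrays. No paired analysis was possible because each group has 1 array and no test was run. A stricter limit of 3-fold left 75 higher and 142 lower probe sets, by its construction. Under the other alternatives the counts stayed within 1.5 times: values as deposited gave 247 higher and 373 lower, quantile normalization 272 and 352, scaling on the 2 arrays 273 and 349, a floor of 36.2 gave 207 and 236, no floor with a pseudocount of 16 gave 196 and 284, the CAMTA.1.2 array as control 325 and 335, and the mean of both controls 281 and 304. Of 124 named genes, 122 kept their direction or showed no difference with the CAMTA.1.2 array as control, and 34 of those that were 2-fold apart from Col-0 were then inside 2-fold. TET8 and CSLC5 reversed, at 0.19 and 0.39 on the log2 scale, since the CAMTA.1.2 array was lower than the CAMTA.6.2 array. Quantile normalization took PSAE-1 and ATG8E inside 2-fold, and values as deposited PSAE-1, TMT1 and AT4G26010. The doubled floor took 35 and the pseudocount 23 inside 2-fold, as both shrink differences of dim probe sets.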

Other observations

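Neighbouring genes were compared after the data were seen, using the gene order of the reference table. Both genes of 1206 neighbouring pairs of protein-coding genes were named by probe sets, and in 133 of these pairs a gene was 2-fold apart. Both genes were higher on the CAMTA.6.2 array in 3 pairs, both were lower in 2 and they went opposite ways in 1. AT1G03220 and AT1G03230 were higher by 1.46 and 1.45 on the log2 scale, at 439 and 104.4 on the Col-0 array and at 1207 and 284.9 on the CAMTA.6.2 array. PORB and its neighbour AT4G27450 were higher by 1.96 and 1.03, and AT2G32870 and AT2G32880, both at the Col-0 floor, by at least 1.2 and 1.81. AT4G21640 and AT4G21650 differed by -1.39 and -2.40, and AT2G32020 and AT2G32030, both at the floor on CAMTA.6.2, gave bounds of -1.71 and -1.35. WRKY53, at the floor on CAMTA.6.2, gave a bound of -1.82 and its neighbour AT4G23820 was higher by 1.36. Whether probe sets of neighbouring copies share signal was not tested.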
